A study of Mus musculus with 16 samples.

Results

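The effect of knee ligament injury on the mouse quadriceps, the large muscle at the front of the thigh, was measured under blockade of the colony stimulating factor 1 receptor (CSF1-R). The comparison uses 8 of the 16 RNA-seq libraries of the series: 4 of quadriceps labelled ACLT (ACL transection, cutting of the anterior cruciate ligament) and 4 of quadriceps labelled healthy, all from mice that drank a CSF1-R inhibitor at 40 mg/kg. The remaining 8 libraries, 4 injured and 4 healthy, came from mice that drank 0.5% sucrose as placebo. They enter the filter on low counts, the scaling, the shared estimate of spread and the test of whether the injury effect differed. Drinking lasted for the 7 days after transection in both treatments. The libraries were chosen by their sample titles, not by any measured value. Library names end in L for every healthy and R for every injured sample and share a stem within a pair, so each pair was read as the limbs of 1 animal, numbered 1 to 4. The labels do not state this pairing, and on this reading the healthy limb is the other limb of an operated mouse. The design text instead speaks of muscle before and after transection, so whether a healthy sample is the other limb or a limb before operation cannot be told apart here. Strain, sex, age and the inhibitor's name are not given in the sources used here, and every animal of this comparison had the inhibitor.

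CSF1-R is the surface receptor through which macrophages and their monocyte precursors receive the survival and growth signals CSF1 and IL-34, and its inhibitors deplete many tissue macrophages. In injured muscle, macrophages clear debris, present antigen and pass signals to satellite cells, the stem cells that rebuild fibres, and to fibro-adipogenic progenitors, which lay down matrix. After injury of this ligament the quadriceps is known for lasting weakness and wasting. The groups of genes followed here are therefore those of macrophages and other immune cells, of regeneration and the nerve-muscle contact, of wasting and growth, of fibre type and metabolism, and of the other tissues that a dissected muscle can carry.

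No gene was called different between injured and healthy quadriceps of inhibitor-treated mice by edgeR's quasi-likelihood test with Benjamini-Hochberg adjustment at 0.05, which is 0.0% of 15411 genes tested. Every adjusted p of this comparison was 1, the smallest included, so the differences below are descriptions, each given as a log2 difference ± its standard error. At an unadjusted p under 0.05 stood 202 genes (1.31%), of which 118 (0.766%) were higher and 84 (0.545%) lower in the injured limb. Of all tested genes, 51.0% had a log2 difference (injured minus healthy) above 0, and the median was 0.00. The levels of the 4 injured libraries lay wholly above those of the 4 healthy ones in 174 genes (1.13%) and wholly below in 172 (1.12%), together 346 (2.25%), and all 4 animals lay on the same side of 0 in 2141 genes (13.9%). Levels are in CPM, the counts of a gene scaled to a common library total, always in the order of animals 1 to 4. The labels call the samples biological replicates, and p-values measure only the spread between these samples.

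The spread that these tests used was shared with the placebo groups, which were more variable. Standard errors below are from that shared fit unless stated otherwise. For a gene that varied widely under placebo they can exceed the spread among the inhibitor limbs. Over 11649 well-expressed genes, the median SD of log2 CPM within a group was 0.162 in healthy and 0.165 in injured limbs of inhibitor-treated mice, against 0.225 and 0.246 in the placebo groups. When edgeR was fitted to the 8 inhibitor libraries alone, 511 of 14460 genes (3.53%) had an unadjusted p under 0.05. With the animal as a block in those 8 libraries the number was 808 (5.59%), with a smallest adjusted p of 0.37, and again no gene was called.

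The libraries held 20.12 to 27.13 M counts each. Markers of skeletal muscle (Acta1, Ckm, Myh4, Myh1, Tnnt3, Mylpf, Mb and Atp2a1) were present in all 8, with a summed level of 138845 to 181285 CPM in healthy and 137078 to 160390 CPM in injured limbs. The healthy library of animal 1 stood apart from the other 7. Its 7 markers of joint lining and cartilage summed to 182 CPM, where the other healthy libraries had 9.86 to 21.3 and the injured ones 16.4 to 17.7. Prg4 (lubricin) made up 169 CPM of that sum. Col2a1, Acan, Col10a1 and Cytl1 were also highest in this library, at 0.32 to 4.62 CPM, while Col11a2 and Col9a1 were not. That library also held the highest sums of the macrophage markers (67.3 CPM against 19.5 to 38.4 in the other healthy limbs), the neutrophil markers (9.97 against 0.371 to 0.651) and the red blood cell markers (307 against 77.8 to 102). The results that it moved most are therefore given with and without it.

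Macrophage genes did not differ in a common direction between the limbs. Csf1r, the receptor that the inhibitor targets, was at 14.5, 8.48, 6.97 and 3.39 CPM in the healthy limbs of animals 1 to 4 and at 9.51, 6.03, 11.6 and 7.85 CPM in the injured limbs. The injured limb was lower in animals 1 and 2 and higher in animals 3 and 4, and the groups overlapped. The log2 difference was 0.07 ± 0.80 (4 limbs against 4, SE from the fit over all 16 libraries), and it was 0.47 ± 0.88 without the healthy library of animal 1. These errors also hold the spread of the placebo limbs, where Csf1r was at 1.83 to 63.8 CPM. Fitted to the 8 inhibitor libraries with the animal as a block, the difference was 0.18 ± 0.37. Transcript levels do not measure how far the receptor protein was inhibited. In whole muscle, fewer cells of a type and less RNA per cell cannot be told apart.

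The ligands of the receptor were no more regular. Csf1, the main ligand, was at 13.4, 12.5, 10.5 and 12.5 CPM in healthy and 12.2, 8.94, 14.0 and 15.5 CPM in injured limbs, a log2 difference of 0.05 ± 0.30. Il34, the second ligand, had a log2 difference of -0.09 ± 0.24. Both were lower in the injured limb of animals 1 and 2 and higher in that of animals 3 and 4, the same split as the receptor.

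Of 23 tested genes of resident muscle macrophages, 12 lay above 0 and 11 below, with a median log2 difference of 0.06 and none called. The median was -0.54 in animal 1, -0.53 in animal 2, 0.60 in animal 3 and 0.37 in animal 4. Without the healthy library of animal 1, 19 of the 23 lay above 0 and the median was 0.35. C1qa, a chain of complement C1q made mainly by macrophages, was at 12.0, 4.74, 3.52 and 2.12 CPM in healthy and 8.22, 3.28, 5.66 and 4.24 CPM in injured limbs. The healthy limb of animal 1 was the highest of the 8 libraries, and the log2 difference of -0.07 ± 1.00 became 0.62 ± 1.09 without it. Mertk, a receptor with which macrophages take up dead cells, was at 3.16, 3.48, 3.14 and 2.54 CPM in healthy and 2.06, 1.69, 2.60 and 3.31 CPM in injured limbs. It was lower in the injured limb of 3 of 4 animals, with a log2 difference of -0.35 ± 0.30. Genes of repair macrophages had a median of 0.03, with 7 of 12 above 0. For 1 of them, Mmp12, a macrophage elastase, all healthy libraries were at 0 counts, and the median was 0.03 also with that gene at its bound.

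**Figure D1:**
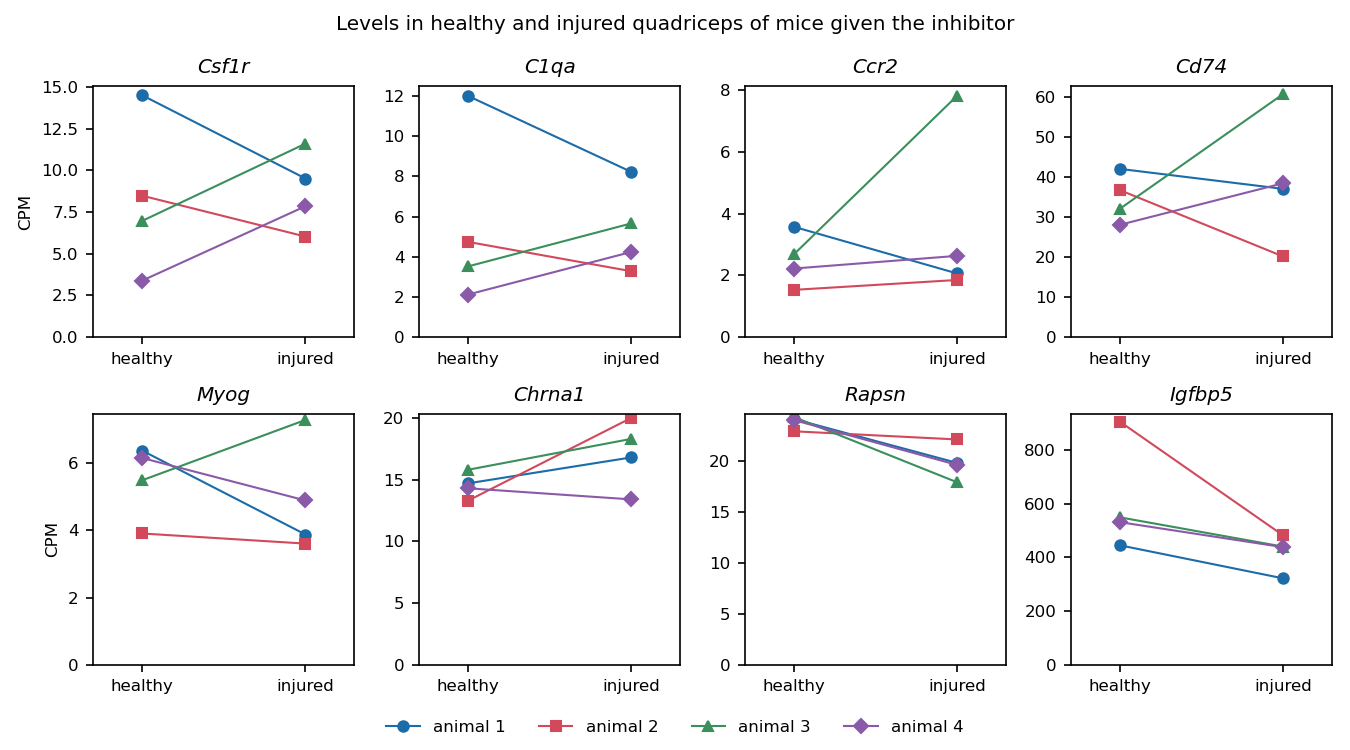
Levels (CPM, linear axes from 0) of 8 genes in the healthy and the injured quadriceps of the 4 inhibitor-treated mice, with a line joining the limbs read as 1 animal. The lines of Csf1r, C1qa and Cd74 cross, while Rapsn and Igfbp5 are lower in the injured limb of every animal.

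Other immune cells gave the same picture of animals going apart. Monocyte genes had a median of 0.12, with 6 of 10 above 0, and of -0.97, 0.02, 0.70 and 0.63 in animals 1 to 4. Without the healthy library of animal 1, all 10 lay above 0 and the median was 0.63, which is the largest shift that this library made among the immune lists of 10 or more genes. Ccr2, the receptor that draws monocytes into tissue, was at 3.57, 1.53, 2.68 and 2.22 CPM in healthy and 2.06, 1.85, 7.81 and 2.63 CPM in injured limbs. The injured limb of animal 3 stood far above the other 7 libraries, and the log2 difference was 0.53 ± 0.97.

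Genes of MHC class II, the molecules that present antigen to helper T cells, and of dendritic cells had a median of 0.03 with 9 of 12 above 0. The medians of animals 1 to 4 were -0.18, -0.66, 0.69 and 0.19. Cd74, the chaperone of MHC class II, was at 42.1, 36.8, 32.1 and 28.1 CPM in healthy and 37.1, 20.2, 60.8 and 38.5 CPM in injured limbs, a log2 difference of 0.17 ± 0.67. The groups overlapped, and animal 2 had the lowest and animal 3 the highest injured value. H2-DMa, which helps to load peptide onto class II molecules, was lower in the injured limb of 3 of 4 animals (-0.32 ± 0.51), and its difference was -0.03 ± 0.54 without the healthy library of animal 1.

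Complement genes lay above 0 in 9 of 14 cases (median 0.06) and in 14 of 14 without the healthy library of animal 1 (median 0.25). Chemokine and cytokine genes lay above 0 in 10 of 12 (median 0.13, and 0.42 without that library). In this list, Cx3cl1, the ligand of the macrophage receptor CX3CR1, was at 2.84, 1.45, 2.49 and 1.59 CPM in healthy and 2.82, 3.97, 4.79 and 2.59 CPM in injured limbs. Its injured limb was higher in animals 2, 3 and 4 and level in animal 1, and the log2 difference was 0.76 ± 0.33. Cxcl14, a chemokine made by stromal cells and muscle, was at 23.9, 36.1, 32.5 and 31.7 CPM in healthy and 28.9, 18.7, 20.8 and 29.0 CPM in injured limbs. It was lower in the injured limb of 3 of 4 animals (-0.35 ± 0.16).

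Mast cells, neutrophils and lymphocytes were represented by few genes. Cma1, the mast cell chymase, was at 1.51, 1.15, 0.766 and 0.741 CPM in healthy and 2.68, 1.32, 3.59 and 2.93 CPM in injured limbs. All 4 animals had more in the injured limb although the groups overlapped, with a log2 difference of 1.34 ± 0.50. The 5 tested mast cell genes had a median of 0.45, but of -0.26 and -0.86 in animals 1 and 2 and of 0.94 and 1.96 in animals 3 and 4. It was 0.84 without the healthy library of animal 1, 0.11 without animal 3 and 0.05 without animal 4. S100a9, a calcium-binding protein abundant in neutrophils, was at 4.85 CPM in the healthy limb of animal 1 and at 0 to 0.192 CPM in the other healthy limbs, against 0.0826 to 0.239 CPM in the injured ones. A count of 3 corresponded to 0.111 to 0.149 CPM in these libraries, so outside animal 1 the gene was near the limit of detection. The neutrophil median was -1.12 over 5 genes and 0.40 without that library. Cd3e, a chain of the T cell receptor complex, was lower in the injured limb of 3 of 4 animals (-0.45 ± 0.34), and 3 of 4 lymphocyte genes lay below 0.

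Interferon-stimulated genes, which cells switch on through the transcription factor complex ISGF3, lay below 0 in 20 of 24 cases, with a median of -0.12 and none called. The median was -0.42 in animal 1 and -0.03, -0.08 and -0.01 in animals 2 to 4. Without the healthy library of animal 1, 10 of 24 lay above 0 and the median was -0.08. Promoters are shown of the 3 members of smallest p whose window held the element this pathway acts through, since the list as a whole enters the comparison with placebo below. They are RefSeq sequences of GRCm38.p6, from 250 bases before to 50 after the gene start, 5′ to 3′ on the strand of the gene. Capitals mark matches to the core of the interferon-stimulated response element, searched as TTTC, any 2 bases and TTTC again, on either strand. Matches that overlap run together.
Irgm1 (chr11:48871371-48871670, minus strand): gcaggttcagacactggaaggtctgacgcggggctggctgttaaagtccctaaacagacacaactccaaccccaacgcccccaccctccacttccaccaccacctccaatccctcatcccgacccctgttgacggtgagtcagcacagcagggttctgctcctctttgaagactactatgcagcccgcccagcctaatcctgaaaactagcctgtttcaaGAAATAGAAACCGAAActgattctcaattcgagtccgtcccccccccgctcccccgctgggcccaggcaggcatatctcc
Ifih1 (chr2:62646206-62646505, minus strand): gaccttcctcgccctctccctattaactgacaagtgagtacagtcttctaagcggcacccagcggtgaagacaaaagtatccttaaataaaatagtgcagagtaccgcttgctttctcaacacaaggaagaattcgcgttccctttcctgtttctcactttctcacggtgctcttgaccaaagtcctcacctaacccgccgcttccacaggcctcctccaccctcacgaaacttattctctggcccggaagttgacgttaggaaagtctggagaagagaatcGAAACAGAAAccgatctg
Isg15 (chr4:156200769-156201068, minus strand): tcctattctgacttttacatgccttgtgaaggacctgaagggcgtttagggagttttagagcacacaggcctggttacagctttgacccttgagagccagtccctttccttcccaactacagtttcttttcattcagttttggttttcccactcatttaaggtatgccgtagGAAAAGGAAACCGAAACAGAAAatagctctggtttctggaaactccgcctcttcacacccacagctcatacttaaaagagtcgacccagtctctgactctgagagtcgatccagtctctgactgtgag
The core was found in 12 of the 19 members of the list with a promoter in the RefSeq table (63.2%), against 1079 of 27025 genes in all (3.99%). A match describes the letters of these windows and does not show binding.

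Irgm1, a GTPase of defence against intracellular microbes, was at 19.3, 15.9, 20.4 and 14.2 CPM in healthy and 14.7, 16.6, 17.0 and 14.0 CPM in injured limbs, a log2 difference of -0.17 ± 0.14. Ifih1, a sensor of double-stranded RNA, was at 5.86, 4.66, 6.78 and 5.19 CPM in healthy and 4.21, 5.08, 5.70 and 4.28 CPM in injured limbs (-0.22 ± 0.21). Both were slightly higher in the injured limb of animal 2 and lower in the other 3 animals. Isg15, a ubiquitin-like protein, was low throughout, at 0.191 to 2.22 CPM in healthy and 0.318 to 1.05 CPM in injured limbs. Ifi35, an interferon-induced leucine zipper protein (GRCm38 chr11:101448407-101458698), was at 7.91, 8.03, 8.12 and 8.73 CPM in healthy and 7.41, 5.87, 5.33 and 7.25 CPM in injured limbs. All injured values lay below all healthy ones, and the log2 difference was -0.34 ± 0.16.

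Genes of satellite cells and myogenesis were evenly divided, with 9 of 18 above 0 and a median of 0.00. Pax7, the factor that marks satellite cells, was at 4.03, 3.86, 2.95 and 4.34 CPM in healthy and 3.30, 3.81, 3.26 and 2.50 CPM in injured limbs (-0.24 ± 0.30). Myog, the factor that drives myoblasts to differentiate and that denervation also induces, was at 6.36, 3.90, 5.48 and 6.14 CPM in healthy and 3.87, 3.60, 7.27 and 4.88 CPM in injured limbs. The injured limb was lower in 3 of 4 animals and the groups overlapped (-0.15 ± 0.65). Myh3, the embryonic myosin heavy chain of regenerating fibres, was at 5.53, 1.11, 3.91 and 2.38 CPM in healthy and 7.60, 4.08, 9.66 and 2.93 CPM in injured limbs. The injured limb was higher in all 4 animals, by a log2 difference of 0.91 ± 1.12 with overlapping groups. Fitted to the 8 inhibitor libraries with the animal as a block, the difference of Myh3 was 0.96 ± 0.26 (edgeR adjusted p = 0.65). Cdh15, the cadherin of satellite cells and myoblasts, was at 24.7 to 26.0 CPM in healthy and 19.0 to 22.5 CPM in injured limbs without overlap (-0.25 ± 0.15).

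The 19 tested genes of the neuromuscular junction and denervation had a median of 0.09, with 11 above 0. Chrna1, the alpha subunit of the muscle acetylcholine receptor, which denervated fibres make along their length, was at 14.7, 13.3, 15.8 and 14.3 CPM in healthy and 16.8, 20, 18.3 and 13.4 CPM in injured limbs. In 3 of 4 animals the injured limb was higher (0.23 ± 0.31). Musk, the receptor kinase that organises the junction, had a log2 difference of 0.04 ± 0.19, with 2 animals up and 2 down. Rapsn (GRCm38 chr2:91035620-91045729), the scaffold that clusters the receptors at the junction, was at 24.1, 22.9, 24.3 and 24 CPM in healthy and 19.8, 22.1, 17.9 and 19.6 CPM in injured limbs. All injured values lay below all healthy ones, by a log2 difference of -0.26 ± 0.09, and animal 2 showed the smallest step. It was the only gene of this list at an unadjusted p under 0.05, against 1.31% of all tested genes.

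The promoters of Chrna1 and Myog are shown because myogenic factors act on both through E-boxes. These are RefSeq windows of the same length and build, and capitals mark matches to the E-box CANNTG, which reads the same on both strands as a pattern.
Chrna1 (chr2:73580289-73580588, minus strand): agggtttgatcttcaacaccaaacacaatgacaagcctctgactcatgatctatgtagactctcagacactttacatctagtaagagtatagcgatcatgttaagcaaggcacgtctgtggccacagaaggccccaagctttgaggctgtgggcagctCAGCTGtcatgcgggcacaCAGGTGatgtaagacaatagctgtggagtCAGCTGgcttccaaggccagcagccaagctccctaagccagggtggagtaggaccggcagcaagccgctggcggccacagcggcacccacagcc
Myog (chr1:134289754-134290053, plus strand): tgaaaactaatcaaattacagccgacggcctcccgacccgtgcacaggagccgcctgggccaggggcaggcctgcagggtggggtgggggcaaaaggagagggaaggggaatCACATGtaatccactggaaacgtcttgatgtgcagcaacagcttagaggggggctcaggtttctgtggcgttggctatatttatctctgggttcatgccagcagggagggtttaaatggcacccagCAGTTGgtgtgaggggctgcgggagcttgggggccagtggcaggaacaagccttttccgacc
The E-box is short and common. It was in 11 of 12 members of the junction and denervation list with a promoter in the table (91.7%) and in 75.0% of all 27025 genes.

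Genes of muscle wasting lay mostly slightly below 0, and none was called. Of 22 tested atrophy genes, 6 lay above 0, with a median of -0.04 and medians of -0.03, -0.07, -0.07 and -0.04 in animals 1 to 4. Without both libraries of animal 4, 11 of the 22 lay above 0 (median -0.03). Fbxo32, the ubiquitin ligase atrogin-1, was at 578, 684, 401 and 529 CPM in healthy and 591, 517, 212 and 336 CPM in injured limbs. The injured limb was lower in animals 2, 3 and 4 and level in animal 1 (-0.40 ± 0.35). Trim63, the ubiquitin ligase MuRF1, was at 181, 191, 164 and 221 CPM in healthy and 180, 148, 111 and 155 CPM in injured limbs. It followed the same pattern, with a log2 difference of -0.35 ± 0.21. With the animal as a block in all 16 libraries, the adjusted edgeR p was again 1 for both.

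Of the 26 proteasome subunits, 25 lay below 0, with a median of -0.07 and a range of -0.21 to 0.03. Over all genes tested, 51.0% lay above 0. The medians of animals 1 to 4 were -0.02, -0.06, -0.12 and -0.14, and 5 of 26 were above 0 without the healthy library of animal 1. Without both libraries of animal 3, 7 of 26 were above 0 (median -0.06), and 9 of 26 without those of animal 4 (median -0.03). Psmd11, a subunit of the regulatory cap, was at 72.1 to 78.9 CPM in healthy and 62.5 to 68.2 CPM in injured limbs, without overlap (-0.20 ± 0.10). Autophagy genes had a median of -0.02. Glucocorticoid-induced genes had a median of -0.06, with 13 of 16 below 0, and Tsc22d3, which encodes the glucocorticoid-induced leucine zipper, was at 100, 122, 109 and 135 CPM in healthy and 102, 96.9, 71.8 and 108 CPM in injured limbs. It was lower in the injured limb of animals 2, 3 and 4 (-0.30 ± 0.14).

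Among growth factors of the IGF and TGF-beta axis, 17 of 27 genes lay below 0 (median -0.04). Of them, 2, Igfbp5 and Gdf11, had an unadjusted p under 0.05. Over all tested genes 1.31% had such a p, and 0.545% had it and were lower. Igfbp5 (GRCm38 chr1:72857932-72874884), an IGF-binding protein abundant in muscle, was at 445, 905, 549 and 531 CPM in healthy and 322, 482, 440 and 438 CPM in injured limbs. It was lower in the injured limb of every animal, most in animal 2, with a log2 difference of -0.53 ± 0.18, and of -0.27 without the healthy limb of animal 2. Gdf11, a close relative of myostatin, was at 10.7, 24.9, 16.6 and 12.5 CPM in healthy and 11.2, 12.7, 10.7 and 10.3 CPM in injured limbs (-0.53 ± 0.25). It was lower in the injured limb of 3 of 4 animals, and the healthy limb of animal 2 held the highest level. With each library left out in turn, its log2 difference ranged from -0.69 to -0.25. Mstn, myostatin itself, the secreted inhibitor of muscle growth (GRCm38 chr1:53061640-53068079), was at 59.4, 80.3, 91.8 and 101 CPM in healthy and 55.3, 56.1, 60.9 and 71.3 CPM in injured limbs. It was lower in the injured limb of all 4 animals, least in animal 1, with overlapping groups and a log2 difference of -0.45 ± 0.24.

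Fibre-type genes separated into fast genes that were mostly lower and slow genes that were all higher in the injured limb, and animal 2 had by far the largest slow-twitch difference. All 16 slow-twitch genes lay above 0, with a median of 0.68, and 17 of 19 fast-twitch genes lay below 0, with a median of -0.21. The slow-twitch median was 2.88 in animal 2 and 0.28, 0.31 and 0.23 in animals 1, 3 and 4. It was 0.22 over 16 genes, 15 of them above 0, without both libraries of animal 2, and 1.33 without the healthy library of animal 1. Myh7, the slow myosin heavy chain, was at 1288, 5.50, 776 and 195 CPM in healthy and 1546, 1254, 778 and 50.9 CPM in injured limbs. The healthy limb of animal 2 was almost without it, and animal 4 went the other way (0.68 ± 1.43, and 1.48 ± 1.61 without the healthy library of animal 1).

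The fast myosins also differed among themselves. Myh4, the heavy chain of the fastest fibres (type IIB), was at 40511, 66278, 57214 and 64197 CPM in healthy and 46505, 45819, 41805 and 59447 CPM in injured limbs, lower in 3 of 4 animals (-0.24 ± 0.25). Myh1 (type IIX, GRCm38 chr11:67200052-67224575) was at 7321, 5290, 6679 and 4018 CPM in healthy and 9623, 7993, 8975 and 6373 CPM in injured limbs. It was higher in the injured limb of every animal, by 0.39, 0.60, 0.43 and 0.67 log2 units, with a log2 difference of 0.50 ± 0.27. Fitted to the 8 libraries with the animal as a block, its difference was 0.52 ± 0.09, with an adjusted p = 0.38 by edgeR. Myh2 (type IIA) was also higher in all 4 animals, at 1336 to 4124 CPM in healthy and 2727 to 4754 CPM in injured limbs (0.65 ± 0.48). Acta1, skeletal muscle actin, was at 30424 to 35483 CPM in healthy and 26104 to 29283 CPM in injured limbs without overlap (-0.27 ± 0.14). Casq2, the calcium-storing calsequestrin of slow and cardiac muscle, was higher in the injured limb of all 4 animals, most in animal 2, where it was at 12.6 CPM in the healthy and 63.6 CPM in the injured limb (0.85 ± 0.62).

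**Figure D2:**
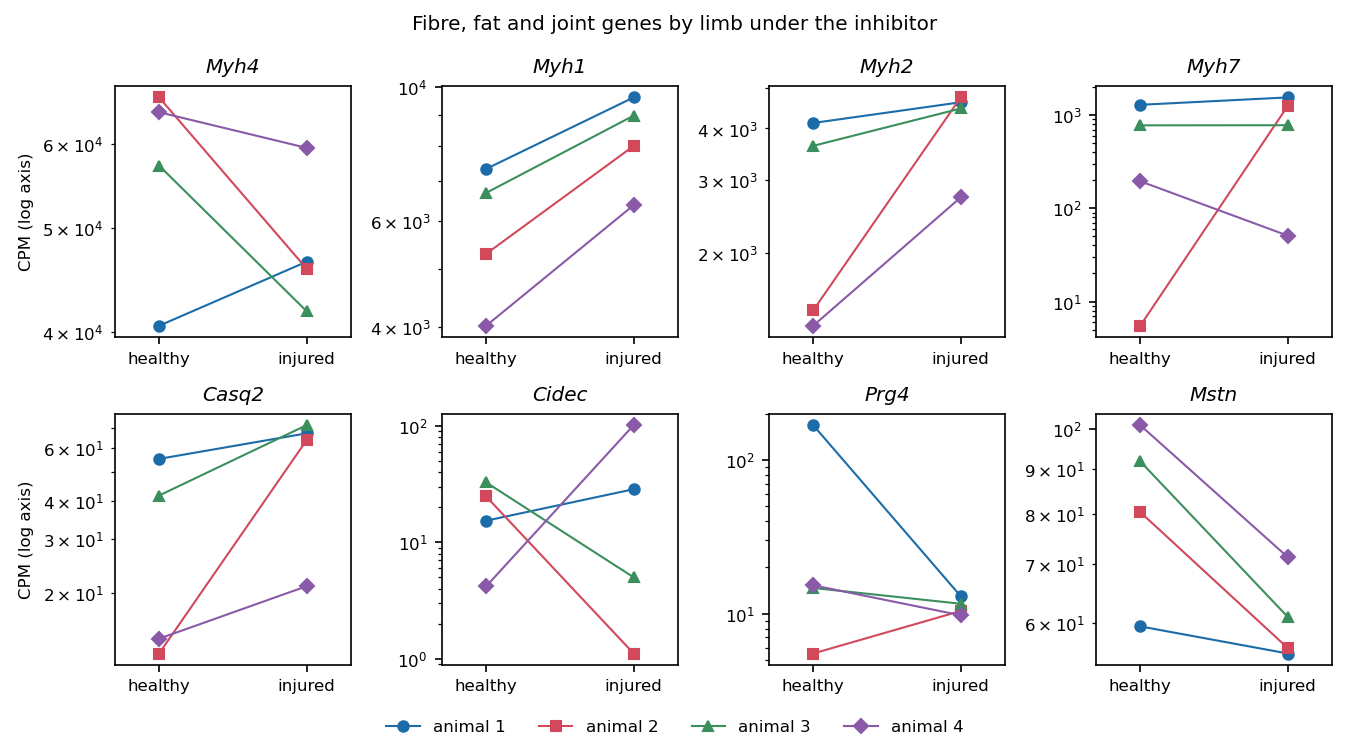
Levels (CPM, logarithmic axes) of 8 fibre, fat, joint and growth genes in the healthy and injured quadriceps of the 4 inhibitor-treated mice, with a line joining the limbs read as 1 animal. Myh1 is higher and Mstn lower in the injured limb of every animal, Myh7 differs mainly in animal 2, Cidec goes in opposite directions, and Prg4 stands at 169 in 1 healthy library.

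Genes of oxidative metabolism lay mostly slightly above 0. This held for 31 of 36 nuclear genes of oxidative phosphorylation (median 0.09), 12 of 13 mitochondrially encoded genes (0.14), 17 of 17 of the tricarboxylic acid cycle (0.09) and 25 of 26 of fatty acid use (0.22). Animal 2, the one whose slow-twitch genes were highest relative to its healthy limb, had the largest median in each list, at 0.34, 0.64, 0.32 and 0.49. Without both of its libraries the medians were 0.02, -0.04, 0.01 and 0.12. Ppargc1a, the coactivator that drives mitochondrial gene programmes, was at 34.2, 28.7, 31.8 and 28.6 CPM in healthy and 43.7, 40.0, 37.6 and 33.7 CPM in injured limbs. It was higher in the injured limb of every animal (0.33 ± 0.17). Acadvl, which begins the oxidation of long-chain fatty acids, was at 259, 172, 223 and 189 CPM in healthy and 296, 268, 248 and 227 CPM in injured limbs, again higher in all 4 (0.30 ± 0.15). Sdhd, an anchor subunit of succinate dehydrogenase, was higher in all 4 (0.20 ± 0.11), and Cox5a, of cytochrome c oxidase, in 2 of 4 (0.13 ± 0.11). Glycolysis genes lay below 0 in 15 of 22 cases (median -0.07).

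The tissues around the fibres showed differences of single animals. Of 42 genes of fibrillar collagen and matrix, 28 lay above 0 (median 0.11), with animal medians of -0.17, -0.11, 0.32 and 0.33. Col1a1, the main chain of type I collagen, was at 115, 70.9, 118 and 66.1 CPM in healthy and 95.8, 85.7, 208 and 87.1 CPM in injured limbs, high in the injured limb of animal 3 (0.37 ± 1.29). Postn, periostin, a matrix protein of healing tissue, was at 13.2, 4.55, 9.61 and 5.35 CPM in healthy and 18.1, 22.3, 33.6 and 7.63 CPM in injured limbs. Every animal had more in the injured limb (1.32 ± 1.57). The wide error also holds the placebo limbs, which were at 3.04 to 551 CPM. Fitted to the 8 inhibitor libraries with the animal as a block, the difference of Postn was 1.28 ± 0.43 (edgeR adjusted p = 0.89). Tendon genes lay above 0 in 8 of 11 cases (median 0.19).

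Genes of fibro-adipogenic progenitors had a median of -0.07, with 6 of 16 above 0. Pdgfra, their surface receptor, was at 32.9, 32.9, 24.9 and 26.2 CPM in healthy and 32.7, 22.8, 25.2 and 30.7 CPM in injured limbs (-0.07 ± 0.30). Fat cell genes had the widest range of the 40 lists and went in opposite directions, with medians of 0.46, -3.70, -1.99 and 3.75 in animals 1 to 4. Cidec, a protein of lipid droplets, was at 15.3, 24.7, 32.6 and 4.18 CPM in healthy and 28.5, 1.11, 5.00 and 101 CPM in injured limbs. The lowest and the highest values were both in injured limbs (0.82 ± 1.20). Without animal 4 the median of the fat cell list was -1.09, against 0.35 in all.

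Endothelial genes had a median of 0.00, and Pecam1, an adhesion molecule of vessel lining, was at 47.6 to 61.6 CPM in healthy and 52.5 to 61.0 CPM in injured limbs (0.03 ± 0.15). All 11 Schwann cell genes, of the glia of peripheral nerve, lay below 0 in the fit (median -0.31), but the animal medians were 0.09, -0.24, -1.10 and 0.71. The healthy limb of animal 3 held the highest summed Schwann cell markers, 80.8 CPM against 26.5 to 44.8 in the other 7 libraries, and without animal 3 the median was 0.14. Prg4, the joint lubricant lubricin, was at 169, 5.50, 14.7 and 15.3 CPM in healthy and 13, 10.4, 11.6 and 9.76 CPM in injured limbs (-2.19 ± 1.52), and its log2 difference was -0.08 ± 1.45 without the healthy library of animal 1. Cell cycle genes had a median of 0.06, and Mki67, a marker of dividing cells, was at 0.106 to 1.78 CPM in healthy and 0.0848 to 1.12 CPM in injured limbs (-0.74 ± 1.70). Its difference was -0.04 ± 1.90 without the healthy library of animal 1, which held the highest level.

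**Figure D3:**
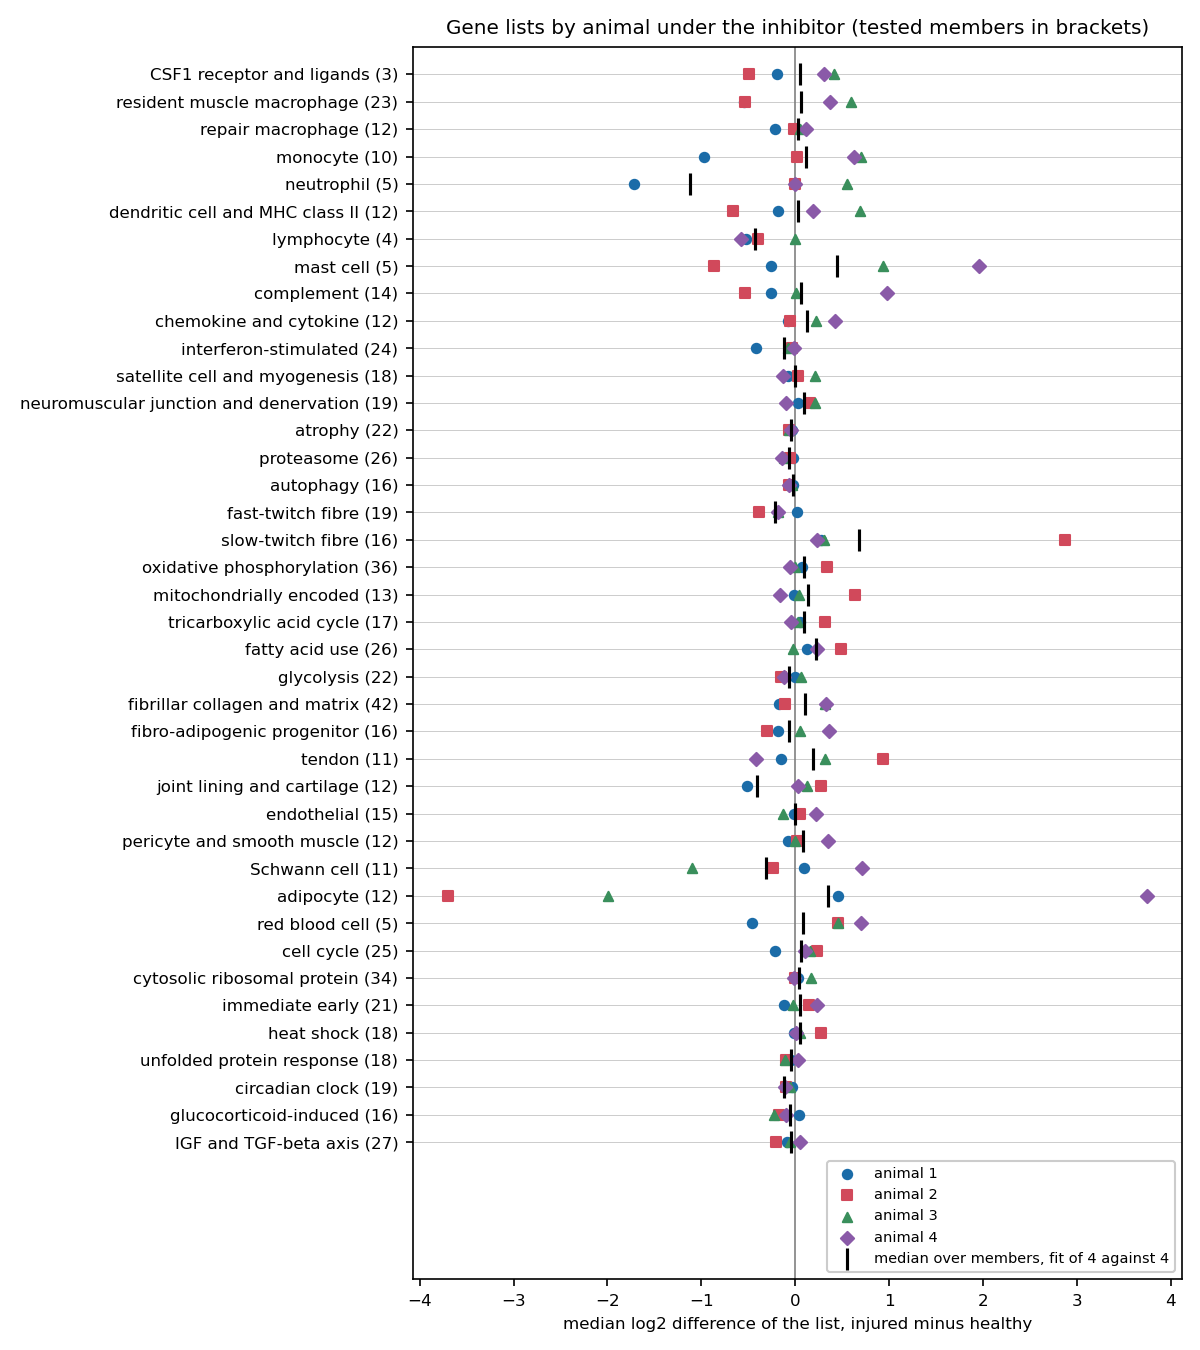
Median log2 difference (injured minus healthy) of each of the 40 gene lists in each inhibitor-treated animal (symbols) and over the members in the fit of 4 against 4 (black bars), with the number of tested members in brackets. Macrophage, monocyte and MHC class II lists split between animals, fat cell genes spread from -3.70 to 3.75, and the slow-twitch median of animal 2 stands at 2.88.

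The remaining lists covered the clock, protein synthesis, stress and other tissues. Circadian clock genes had a median of -0.12 with 13 of 19 below 0, and Tef, a clock-controlled transcription factor, was at 212, 271, 206 and 248 CPM in healthy and 193, 218, 157 and 199 CPM in injured limbs. It was lower in the injured limb of all 4 animals (-0.29 ± 0.16). Cytosolic ribosomal protein genes had a median of 0.04 (30 of 34 above 0), immediate early genes 0.05, heat shock genes 0.05 and genes of the unfolded protein response -0.04. Pericyte and smooth muscle genes had a median of 0.08. Red blood cell genes had a median of 0.08, and of 0.79, with 5 of 5 above 0, without the healthy library of animal 1. The joint lining and cartilage list had a median of -0.41 over 12 genes, and of 0.13 without the healthy library of animal 1.

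With no gene called, the 10 genes of smallest unadjusted p in each direction were taken to show what the test ranked first, among named genes with a mean log2 CPM of at least 1. All 20 lay on the same side of 0 in all 4 animals, and 12 had groups that did not overlap, against 2.25% of all tested genes. The ranking by p on these same values favours both, so neither adds support. The differences were small, from 0.24 to 0.83 above and from -0.26 to -0.66 below 0. Timm8a1, a chaperone of protein import into the inner mitochondrial membrane, was at 6.59, 5.43, 5.52 and 5.56 CPM in healthy and 8.94, 8.47, 7.48 and 8.19 CPM in injured limbs (0.52 ± 0.17). Mtx2, metaxin 2 of the outer mitochondrial membrane, was at 12.5 to 15.4 CPM in healthy and 17.1 to 22.9 CPM in injured limbs (0.48 ± 0.17). Mief2, a mitochondrial fission factor, was at 72.2 to 77.9 CPM in healthy and 85.6 to 95.2 CPM in injured limbs (0.27 ± 0.09). In these 3 genes the groups did not overlap.

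The other higher genes were of varied function. Ampd3, an AMP deaminase that muscle induces during wasting, was at 14.9, 13.4, 17.2 and 13.1 CPM in healthy and 17.9, 21.9, 24.2 and 17.2 CPM in injured limbs (0.47 ± 0.15). Sesn3, a stress-inducible regulator of mTORC1, was at 34.7, 27.6, 28.3 and 26.3 CPM in healthy and 35.4, 39.6, 39.6 and 33.9 CPM in injured limbs (0.35 ± 0.11). Both were higher in every animal with slightly overlapping groups. Zfp827, a zinc finger protein, had the largest difference of the higher genes, at 5.86, 4.47, 4.17 and 3.18 CPM in healthy and 7.17, 10.1, 9.50 and 4.79 CPM in injured limbs (0.83 ± 0.26). Arhgap12, Kif13b, a kinesin, Ybx2, an RNA-binding Y-box protein, and Myzap, a protein of cell junctions in the heart, completed the higher genes.

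The lower genes had differences of the same small size. Kdm2b, a histone demethylase, was at 13.3, 14.8, 13.3 and 13.3 CPM in healthy and 11.5, 10.7, 10 and 11.8 CPM in injured limbs (-0.31 ± 0.10). Hira, a chaperone of histone H3 variants, was at 17.9 to 21.8 CPM in healthy and 15.6 to 17.3 CPM in injured limbs (-0.28 ± 0.09). In both, all injured values lay below all healthy ones. Hist2h3c2, a histone H3 gene with near-identical copies whose reads the counting could have split, was at 5.32 to 9.02 CPM in healthy and 4.05 to 5.83 CPM in injured limbs (-0.66 ± 0.23). Maml1, a coactivator of Notch signalling, had a log2 difference of -0.36 ± 0.12. The other lower genes were Rapsn and Igfbp5, described above, and Snx32, Nudcd1, Wrb and Fam124a.

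**Figure D4:**
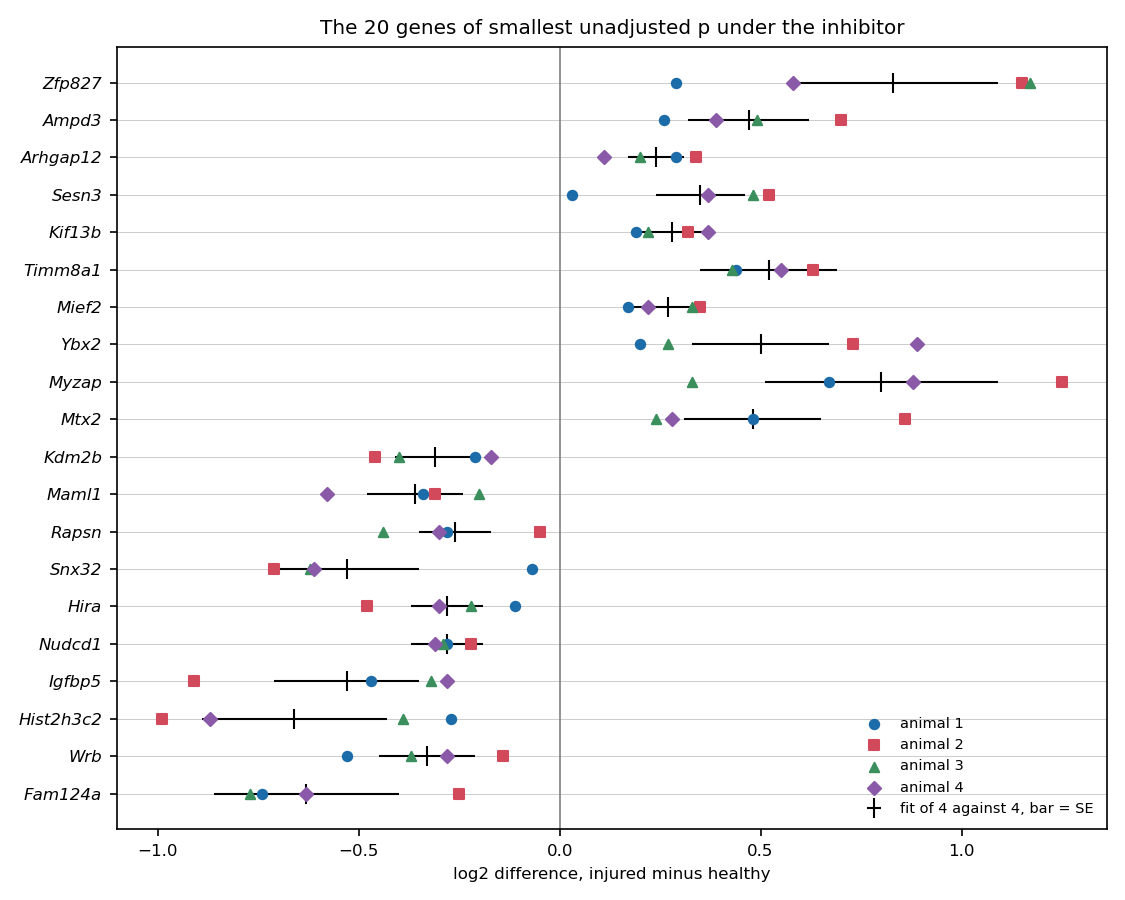
Log2 difference (injured minus healthy) of the 20 genes of smallest unadjusted p, 10 in each direction, in each inhibitor-treated animal (symbols) and in the fit (black, with bars of 1 standard error). All symbols of a gene lie on the same side of 0, and the fitted differences lie between -0.66 and 0.83.

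Whether the injury effect under inhibitor differed from that under placebo was tested directly, as the difference of the 2 log2 differences over all 16 libraries. No gene was called (0.0%, smallest adjusted p 0.998 by edgeR), 423 genes (2.74%) had an unadjusted p under 0.05, and 50.5% of all genes had a difference below 0. Under placebo, injury itself gave 0 called genes and 1116 (7.24%) at an unadjusted p under 0.05, with 51.1% of genes above 0 and 239 genes (1.55%) whose groups did not overlap. Within the placebo groups, 1 healthy library and 2 injured ones were high in joint lining genes, with Prg4 at 220 to 286 CPM against 3.97 to 19.5 CPM in the other 5. Medians are therefore also given without these 3 and the healthy inhibitor library of animal 1. The injured placebo group then rests on replicates 1 and 4 only.

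Over all libraries, the MHC class II, monocyte and resident macrophage lists had the largest gaps between the treatments, and this order did not hold without the 4 libraries. Resident macrophage genes had a median injury difference of 0.06 under inhibitor and 1.62 under placebo, the difference lay below 0 for 22 of 23 genes, and its median was -1.59. Without the 4 libraries high in joint lining genes the median was -0.57. Csf1r was at 1.83, 12.7, 3.45 and 29.9 CPM in healthy and 16.4, 63.8, 60.0 and 10.4 CPM in injured limbs under placebo, and its difference was -1.59 ± 1.12. The 2 highest injured values and the highest healthy value were those of the placebo libraries high in joint lining genes. The median difference was -1.65 for dendritic cell and MHC class II genes (-0.99 without the 4 libraries), -1.64 for monocyte genes (-0.29) and -0.80 for complement genes (-0.64). For these lists, the part of joint tissue in the gap between treatments was not tested beyond leaving those libraries out.

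Interferon-stimulated genes lay below 0 in the difference for all 24 members, with a median of -0.84, and of -0.33 without the 4 libraries. At an unadjusted p under 0.05 stood 7 of them, against 2.74% of all tested genes. Ifi35 had 1 of the smallest p-values: under placebo it was at 4.24, 5.74, 6.12 and 4.89 CPM in healthy and 7.64, 10.2, 7.86 and 6.67 CPM in injured limbs, the reverse of its order under inhibitor. The difference was -0.97 ± 0.23 (edgeR adjusted p = 1). Apod, apolipoprotein D of stromal cells (GRCm38 chr16:31296192-31314808), was at 32.5, 27.3, 32.7 and 23.5 CPM in healthy and 30.8, 23.7, 26.6 and 24.2 CPM in injured limbs under inhibitor. Under placebo it was at 26.2, 27.2, 19.5 and 28.5 CPM in healthy and 44.7, 34.1, 46.2 and 39.5 CPM in injured limbs, with no overlap. The difference was -0.84 ± 0.20 (edgeR adjusted p = 1). All 16 genes of fibro-adipogenic progenitors had a difference below 0 (median -0.50, and -0.45 without the 4 libraries).

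Regeneration and junction lists also had lower median injury differences under inhibitor. The median gap was near 0 once the 4 libraries were left out. Myog was at 3.16 to 5.78 CPM in healthy placebo limbs and at 5.67, 44.6, 33.7 and 2.94 CPM in injured ones, a difference of -2.54 ± 0.91. The median difference of the myogenesis list was -0.72, and -0.02 without the 4 libraries, and that of the junction and denervation list was -0.62, and -0.10 without them. Musk was at 3.13 to 5.41 CPM in healthy and 6.38 to 8.45 CPM in injured placebo limbs, with no overlap, a difference of -0.74 ± 0.28. The injured placebo libraries not high in joint lining genes were at 8.45 and 6.38 CPM, above every healthy placebo value. Chrna1 was at 10.4 to 19.6 CPM in healthy placebo limbs and at 30.3, 43.3, 56.8 and 14.4 CPM in injured ones, a difference of -1.12 ± 0.43. The values of 43.3 and 56.8 CPM were those of libraries high in joint lining genes. Of the other injured placebo libraries, that at 30.3 CPM lay above every healthy placebo value and that at 14.4 CPM within their range. For Myog, Musk and Chrna1 the difference without the 4 libraries is not given here.

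Metabolic genes went the other way. All 36 oxidative phosphorylation genes had a difference above 0, with a median injury difference of 0.09 under inhibitor and -0.17 under placebo, and a median difference of 0.24 (0.28 without the 4 libraries). All 17 tricarboxylic acid cycle genes also lay above 0 in the difference (median 0.24, and 0.17 without the 4 libraries), as did 25 of 26 genes of fatty acid use (0.28, and 0.14). This was not particular to oxidative genes. All 22 glycolysis genes (0.16, and 0.17) and 14 of 15 endothelial genes (0.19, and 0.09) lay above 0 as well. Slow-twitch genes had medians of 0.68 under inhibitor and 0.86 under placebo. Their median difference was -0.14 over all libraries and 1.08 without the 4, so its direction turned. Fast-twitch genes had medians of -0.21 and -0.24, with a median difference of 0.06, and 0.04 without the 4.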

How the data were processed

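Per the labels' protocols, quadriceps RNA was purified with TRIzol and a Zymo MicroPrep kit. The deposited table held estimated counts per Ensembl gene for 16 libraries. The submitters' processing notes name STAR, Partek, DESeq2 and the builds GRCm38 and mm10. The roles, order and versions of these tools, and the annotation, are not given in the sources used here. Of the values the authors deposited, 33.6% were not whole, and 24.2% were more than 0.01 away from a whole number. Every gene reached 10 counts in some library. The group lines in the file's header matched the labels for all 16 libraries, and any 2 libraries differed in at least 95% of genes.

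Counts were rounded. EdgeR 4.0.16 (R 4.3.3) removed 1959 of 17370 genes by filterByExpr at a minimum count of 10. After TMM scaling, a robust quasi-likelihood model with a mean for each of the 4 groups was fitted over the 16 libraries. Its coefficient of biological variation was 0.284, and 12 degrees of freedom were left. Tests were two-sided with Benjamini-Hochberg adjustment at 0.05. Each standard error was derived from the test, as the size of the log2 difference over the square root of its F statistic. It therefore holds no information beyond the unadjusted p. CPM used TMM-scaled totals, and differences within an animal are of log2 CPM with a prior count of 2. Symbols and coordinates came from GENCODE M21 by Ensembl ID (17338 genes matched, 30 sharing a symbol), and promoters from RefSeq. In simulated counts for this comparison (15149 genes), the test found 55% of the 2-fold and 81.8% of the 4-fold changes. These counts had the same spread in every group and no library high in joint lining genes, unlike the data. The percentages therefore do not measure the power of the real comparison.

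Alternatives were DESeq2 1.42.0, DESeq2 size factors, no filter, limma 3.58.1 (voom), an animal block, the 8 libraries alone, and libraries left out. Figures were drawn with matplotlib 3.10.9. The members, the 40 gene lists (706 distinct genes, 689 in the table) and the tests were chosen with earlier results of these data known. Named were the 10 genes of smallest p in each direction (mean log2 CPM of at least 1, no predicted genes), the 3 members of smallest p of each list, and a fixed set of genes, of which the text prints a part. Isg15, Myh2, Ibsp, Lmcd1, Ifrd1, Myh10 and Pla2g7 fall outside this rule and were chosen after their values were seen.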

Additional observations from a re-analysis of the deposited data

Results flagged for a closer look

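In 148 groups of 4 libraries (74 genes in healthy and in injured limbs) and 40 sets of 4 animal medians, a value far from the other 3 was found in 11, and chance gives about 1 in 20 such groups. The healthy library of animal 1 gave 4 of them, of which 1, Ibsp, was chosen after its values were seen. Prg4 was at 169 CPM there against 5.50 to 15.3 CPM in the other healthy limbs, S100a9 at 4.85 against 0 to 0.192 CPM, Timm8a1 at 6.59 against 5.43 to 5.56 CPM, and Ibsp, bone sialoprotein, at 1.78 CPM against 0 counts in the other 7 libraries of the comparison. The same library was the highest in summed joint lining markers, at 182 CPM, of which Prg4 itself was 169 CPM.

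In the injured limb of animal 3, Ccr2 was at 7.81 CPM against 1.85 to 2.63 CPM in the other injured limbs, and Col1a1 at 208 against 85.7 to 95.8 CPM. In the injured limb of animal 4, Myh2 was at 2727 CPM, below 4470 to 4754 CPM in the others, and Casq2 at 21 CPM, below 63.6 to 71.3 CPM. The slow-twitch median of animal 2 was 2.88 log2 units against 0.23 to 0.31 in the other animals. Kdm2b was at 14.8 CPM in the healthy limb of animal 2 and at 13.3 CPM in the other 3, and S100a9 at 0.239 CPM in the injured limb of animal 1 against 0.0826 to 0.106 CPM.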

How the results depend on the processing

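No gene was called for the injury effect under inhibitor or for the difference from placebo by any of the other settings run, with 1 exception: DESeq2 called 1 gene under inhibitor, Ibsp (lower, adjusted p = 0.016), which had counts in 1 of the 8 libraries. The numbers at an unadjusted p under 0.05 did depend on the setting: 686 genes by limma-voom with quality weights, 225 by DESeq2, 539 without the 4 libraries high in joint lining genes, 136 to 361 (lowest with the healthy limb of animal 2 left out, highest with that of animal 1) when each library was left out in turn, and 132 without both libraries of animal 2. For the difference they ranged from 259 (without both libraries of animal 2) to 1671 (limma-voom with quality weights), and were 1274 without healthy placebo replicate 4, 277 without injured placebo replicate 2, and 864 and 956 without injured placebo replicates 1 and 4. With the animal as a replicate block in all 16 libraries, 0 genes were called and 215 had an unadjusted p under 0.05. The pairing was not borne out by the data: limbs of 1 animal correlated at 0.38, -0.06, 0.07 and -0.15 under inhibitor (deviations from group means, 11649 genes), and among these only animal 1 correlated best with its own number. All 20 genes of smallest p and 38 of the other 53 genes kept their direction in all 21 alternatives, and 30 of 40 list medians moved by less than the SD over animals in each of them. The 20 genes were ranked by p on these same libraries, which favours a kept direction, so theirs adds no support. The leaving out of placebo libraries, of animals 2, 3 and 4 and of the 4 libraries was chosen after seeing the data.

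Directions reversed for these genes, some of them with a large difference in the fit over all libraries (S100a9 -3.30, Cidec 0.82, Mki67 -0.74). C1qa was at 0.17 by limma-voom with quality weights, 0.12 with the replicate block, 0.14 with the correlation within animals, 0.12 in the 8 libraries with the block, 0.34 without animal 1, 0.03 without animal 2 and 0.62 without the 4 libraries. Cidec was at -0.68, -0.53, -0.41 and -0.38 in the first 4 of these settings and -1.07 without animal 4. Without animal 1, H2-DMa was at 0.02, Myog at 0.03 and Mki67 at 0.13. Without animal 2, Il34 was at 0.11, Musk at -0.03, Pdgfra at 0.08 and Pecam1 at -0.01. Without animal 3, Csf1r was at -0.18, Csf1 at -0.07, Ccr2 at -0.15, Cd74 at -0.16 and Musk at -0.06. Without animal 4, Csf1r was at -0.14, Csf1 at -0.05 and Pecam1 at -0.03. S100a9 was at 0.14 without the 4 libraries. With each library left out in turn, Csf1r ranged from -0.18 to 0.47, Csf1 from -0.06 to 0.19, Il34 from -0.23 to 0.04, C1qa from -0.35 to 0.62, Ccr2 from -0.19 to 0.75, Cd74 from -0.12 to 0.39, S100a9 from -3.76 to 0.14, Musk from -0.07 to 0.16, Col1a1 from -0.05 to 0.50, Pdgfra from -0.16 to 0.02, Cidec from -0.74 to 1.22 and Pecam1 from -0.03 to 0.09. The cause was not tested.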

Other observations

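When the 8 inhibitor libraries were fitted alone with the animal as a block, the genes ranked first by edgeR were partly others than in the fit over 16 libraries. They were picked for their p after their values were seen, and none was called. Lmcd1, a muscle cofactor that acts through calcineurin signalling, was at 158, 91.3, 148 and 95.4 CPM in the healthy and 213, 139, 230 and 121 CPM in the injured limbs of animals 1 to 4. It was higher in every injured limb although the groups overlapped, since animals 1 and 3 were high in both limbs (0.51 ± 0.08, edgeR adjusted p = 0.37). Ifrd1, a transcriptional coregulator active in muscle regeneration, was at 37.7 to 49.1 CPM in healthy and 52.7 to 71.0 CPM in injured limbs without overlap (0.45 ± 0.08, edgeR adjusted p = 0.38).

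Ankrd1, a stretch-responsive ankyrin repeat protein of the sarcomere, was at 14.1, 7.95, 14.4 and 8.47 CPM in healthy and 19.8, 11.2, 34.3 and 13 CPM in injured limbs (0.73 ± 0.13, edgeR adjusted p = 0.43). Myh10, a non-muscle myosin heavy chain, was higher in the injured limb of all 4 animals (0.56 ± 0.10, edgeR adjusted p = 0.38). Pla2g7, a secreted phospholipase that breaks down platelet-activating factor, was at 41.5, 59.2, 47.0 and 72.4 CPM in healthy and 35.1, 40.5, 36.6 and 41.8 CPM in injured limbs, lower in every animal (-0.48 ± 0.09, edgeR adjusted p = 0.44).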
